A study of Mus musculus with 12 samples.

Results

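The question was what 100 Hz stimulation of the basolateral amygdala changed in the RNA of ventral CA1 when it was added to a tetanization that both groups received. The comparison was chosen by label and used 6 of the 12 libraries, 3 of the group STET_S100 and 3 of the group STET. STET_S100 slices received strong tetanization of ventral CA1, 3 trains of 100 pulses at 100 Hz, together with 100 pulses at 100 Hz to the basolateral amygdala. STET slices received the strong tetanization alone. All slices came from wild-type male C57BL/6J mice aged 5 to 7 weeks. They were horizontal slices of 400 µm that held amygdala and hippocampus, kept for at least 3 h before the recording and frozen 30 min after stimulation. About 1 mm2 around the electrodes was dissected, and 6 slices were pooled per library. Each mouse gave 4 slices, 1 for every group, so the groups shared mice. Acute slices are cut off from the inputs and the circulation of the whole brain. The other 6 libraries were 3 of STET_S200, in which the labels give the amygdala rate as 200 Hz and, in brackets, as 100 pulses at 100 Hz, and 3 of Control, with basal stimulation. Of 55471 genes in the count table, 19492 had enough reads to be tested, and these are the genes described here.

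Long-term potentiation is a lasting strengthening of synapses after intense activity, and its late phase needs new transcription and protein synthesis. The basolateral amygdala projects to ventral CA1, and the pathway is known for its part in emotional memory and anxiety. Strong synaptic activity induces immediate early genes within minutes. Some of these encode transcription factors (Fos, Egr1, Npas4), and others encode proteins that act at synapses (Arc, Homer1). Genes for ribosomal proteins and for the respiratory chain are expressed in all cells at high levels and tend to vary together.

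No gene passed the test between STET_S100 and STET. The quasi-likelihood test of edgeR called 0 of 19492 genes (0%) at an adjusted p of 0.05, and the smallest adjusted p was 0.614, for Rps29. At an unadjusted p of 0.05 the same test listed 615 genes (3.16%), 261 of them higher (1.34%) and 354 lower (1.82%) in STET_S100. DESeq2 called 1 gene, Rps29, and listed 461 genes at an unadjusted p of 0.05. In 922 genes (4.73%) all 3 STET_S100 libraries lay above all 3 STET libraries, and in 949 genes (4.87%) they lay below. The median log2 fold change over all genes was 0.004. In what follows, "higher" and "lower" describe values in STET_S100 relative to STET that did not pass the adjusted threshold in this test. Differences between the groups are log2 fold changes, STET_S100 over STET, and each ± behind one is its standard error (SE).

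The size of change that the comparison could show was set by how often the libraries were sequenced and how far they spread. Total counts of the 6 compared libraries ran from 41.1 to 50.3 M reads. The spread was estimated from all 12 libraries, with a biological coefficient of variation of 8.25%, and the intervals below rest on it. For 13621 genes (69.9%) the 95% interval of the fold change lay within a 1.5-fold change in either direction, and for 16590 (85.1%) within 2-fold. Among the 9894 genes with a mean of at least 10 counts per M reads (CPM), the interval lay within 1.5-fold for 9758 (98.6%) and within 2-fold for 9859 (99.6%). This unit takes no account of transcript length, so levels are compared between groups and not between genes.

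The dissected tissue carried its labelled markers, and 3 features of single libraries touch the comparison. Slc17a7, the vesicular glutamate transporter of hippocampal excitatory neurons, had 1220, 1260 and 1270 CPM in STET_S100 and 1230, 1200 and 1230 CPM in STET. Wfs1, a marker of CA1 pyramidal cells, had 80.7, 82.1 and 81.8 CPM in STET_S100 and 99.2, 79.1 and 81.4 CPM in STET. Markers of choroid plexus and ependyma, tissue outside CA1, varied widely between libraries. Their summed level ran from 135 to 4255 CPM in STET_S100 and from 473 to 3423 CPM in STET, and Ttr, the transthyretin of choroid plexus, had 1840, 2800 and 12.2 CPM in STET_S100 against 254, 2240 and 434 CPM in STET. Fabp4, a fatty acid binding protein of fat and endothelium, exceeded 1 CPM in 1 library of each group, STET_S100 1 with 7.67 CPM and STET 3 with 8.46 CPM. In the other 4 libraries it lay between 0.0479 and 0.275 CPM. Alb, the serum albumin made by liver, had 8.31 CPM in STET_S100 1 and at most 0.0868 CPM in the other 5. In bulk samples such as these, fewer cells of a type and less RNA per cell cannot be told apart.

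Genes for the proteins of the cytosolic ribosome were lower as a group. Of 78 tested members 74 were lower, with a median log2 fold change of -0.08 against 0.004 over all genes. The unadjusted p was below 0.05 in 32 of them (41.0%), all lower, against 1.82% of all genes lower at that level. In 42 members all 3 STET_S100 libraries lay below all 3 STET libraries, against 4.87% of all genes. All 31 genes of the small subunit were lower (median -0.07), and 43 of the 47 genes of the large subunit (median -0.08). Not 1 of the 78 passed the adjusted threshold, and the members share their libraries and tend to vary together, so the count is not a count of independent results. Without STET_S100 2 the count at an unadjusted p below 0.05 was 17, and over the other libraries left out in turn it ran up to 36. Without the libraries that carried Fabp4, 77 of the 78 were lower.

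Rps29, a small-subunit protein, had the smallest p of all genes. It had 185, 180 and 168 CPM in STET_S100 and 232, 239 and 211 CPM in STET. The groups did not overlap, and the mean was 178 ± 9.14 CPM in STET_S100 and 227 ± 14.4 CPM in STET (SD, n = 3 each). The log2 fold change was -0.36 ± 0.06 (SE; 95% interval -0.48 to -0.23), a level 21.8% lower, with an adjusted p of 0.614 in edgeR's quasi-likelihood test. DESeq2 gave an adjusted p of 5.31e-04 for nearly the same fold change, -0.36. Over the 19 other settings the adjusted p of Rps29 ran from 1.74e-10 to 1.00 and its direction did not turn. The lowest value came with no filter, where the fit gave Rps29 56844 residual degrees of freedom against 14.97 with the filter.

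The next ribosomal genes showed smaller differences in the same direction. Rpl38, a large-subunit protein, had 119, 108 and 111 CPM in STET_S100 and 138, 137 and 126 CPM in STET (log2 fold change -0.25 ± 0.05, SE). Rpl39, a small protein of the large subunit, had 52.1, 45.9 and 48.8 CPM in STET_S100 and 60.2, 59.5 and 55.0 CPM in STET (-0.25 ± 0.05). Rps28 had 78.6, 76.8 and 67.3 CPM in STET_S100 and 87.9, 88.6 and 84.4 CPM in STET (-0.23 ± 0.05). None of the 3 overlapped between the groups. Rps21 had 177, 157 and 164 CPM in STET_S100 and 192, 188 and 188 CPM in STET, and Rpl37a had 130, 118 and 124 CPM in STET_S100 and 141, 143 and 140 CPM in STET. Both were lower by 0.19 on the log2 scale, with SE of 0.05. Many ribosomal protein genes have near-identical processed pseudogenes, so the counting could assign their reads differently, and the value of any single member is uncertain for that reason.

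**Figure D1:**
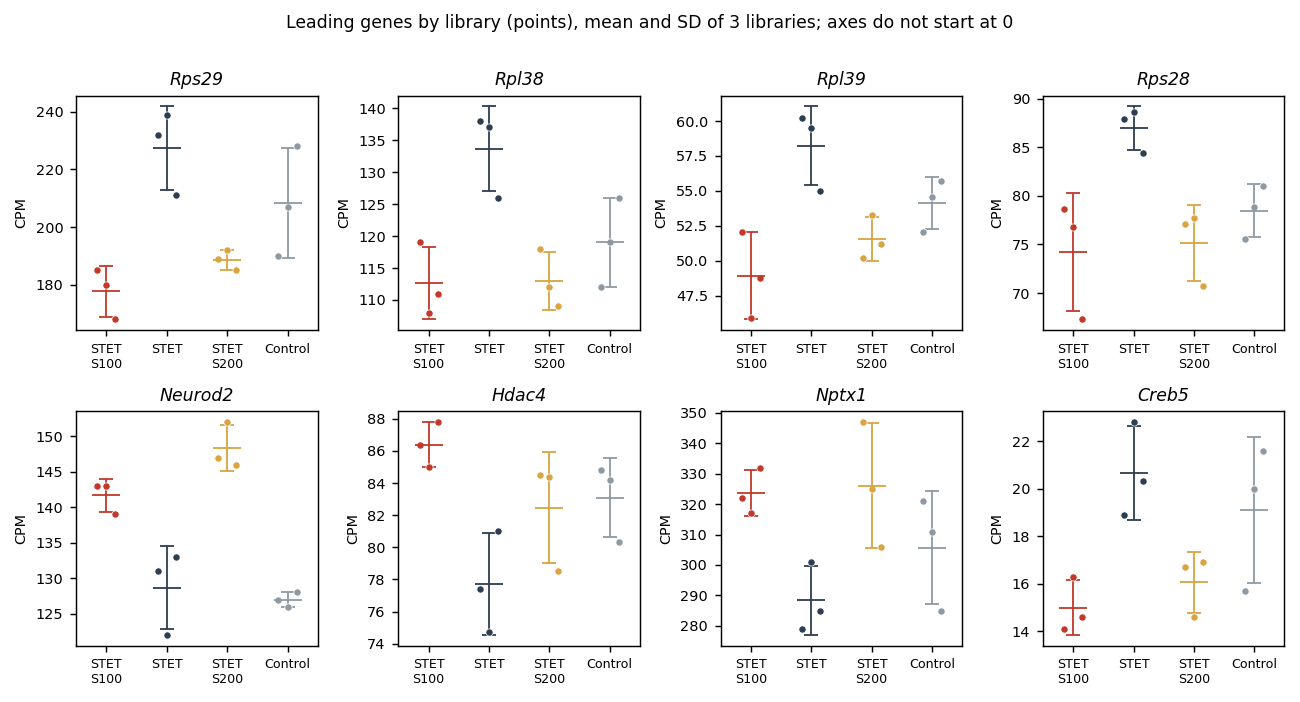
CPM (vertical axes, which do not start at 0) of 8 leading genes in each library, grouped as STET_S100, STET, STET_S200 and Control; bars give the mean and SD of 3 libraries. In all 8 genes the STET_S100 libraries lie on one side of the STET libraries, and for Rps29 the means are 178 CPM in STET_S100 and 227 CPM in STET.

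Most mammalian ribosomal protein messages start with a run of pyrimidines, the 5′ terminal oligopyrimidine tract, through which their translation is controlled by growth and nutrient signalling. The start sites of leading genes of the group are printed because this run is the feature that the family is known to share. Sequences are from RefSeq (GRCm38.p6), 30 bases before to 20 bases after the annotated start, and capitals mark an unbroken run of at least 5 C or T letters that covers the first transcribed base.
Rpl38 (chr11:114668550-114668599, plus strand): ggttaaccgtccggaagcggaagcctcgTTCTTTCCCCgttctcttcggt
Rps21 (chr2:180257349-180257398, plus strand): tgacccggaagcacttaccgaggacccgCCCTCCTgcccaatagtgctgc
Rpl39 (chrX:37085203-37085252, minus strand): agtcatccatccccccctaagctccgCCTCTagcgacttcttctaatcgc
Rps28 (chr17:33824543-33824592, minus strand): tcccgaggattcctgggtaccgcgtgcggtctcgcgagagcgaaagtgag
Rpl37a (chr1:72711230-72711279, plus strand): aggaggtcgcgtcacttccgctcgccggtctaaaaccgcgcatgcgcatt
Rpl38, Rps21 and Rpl39 hold such a run across the annotated start, and Rps28 and Rpl37a do not. The run may begin before the start, and in Rpl39 only its last letter is transcribed by this annotation. Of the 57 ribosomal protein genes with an entry in the sequence table, 21 (36.8%) held such a run on the coding strand, against 11.8% of all 27025 genes in that table. These shares include runs that lie mostly before the start. A run this short depends on where the start is annotated, and no match says only that these letters are not at that base.

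The ribosomal values were seen beside the other 2 groups of the series, which were not part of the choice. The summed level of the 78 genes was 12148, 11480 and 11866 CPM in the STET_S100 libraries and 12563, 12601 and 12393 CPM in the STET libraries. It ran from 11376 to 12445 CPM in STET_S200 and from 11982 to 12070 CPM in Control. All 3 Control libraries thus lay below all 3 STET libraries too, and the range of STET_S200 reached into that of STET. Between STET_S100 and STET_S200 the median log2 fold change of the 78 genes was 0.003, and 0 of them had an unadjusted p below 0.05, against 5.2% of all genes in that comparison.

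Transcript length moved with the same difference. Among protein-coding genes at 2 CPM or more, the median log2 fold change was -0.09 for the 44 genes whose longest annotated transcript has at most 600 bases, -0.08 for 132 genes of 600 to 800 bases and -0.05 for 203 genes of 800 to 1000 bases. It was 0.01 for the 4699 genes of 3000 to 5000 bases and 0.01 for the 3247 genes above 5000 bases. In the 3 shortest classes the median level of every STET_S100 library was below that of every STET library. Of the 379 genes of at most 1000 bases, 294 were lower. Without ribosomal and respiratory chain genes, 232 of 315 were lower, with a median of -0.05.

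Ribosomal protein genes were lower on both sides of that length. The 34 with a longest transcript of at most 1000 bases had a median of -0.11, with 33 lower, and the 44 longer ones had a median of -0.06, with 41 lower. Protein-coding genes of 1000 to 1500 bases at 2 CPM or more had a median of -0.01. The longest annotated transcript need not be the one that is expressed, and Rps28, at 1443 bases by this measure, counts among the longer ones. The split therefore cannot separate length from the gene family. The part of transcript length in the ribosomal protein values was not tested.

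**Figure D2:**
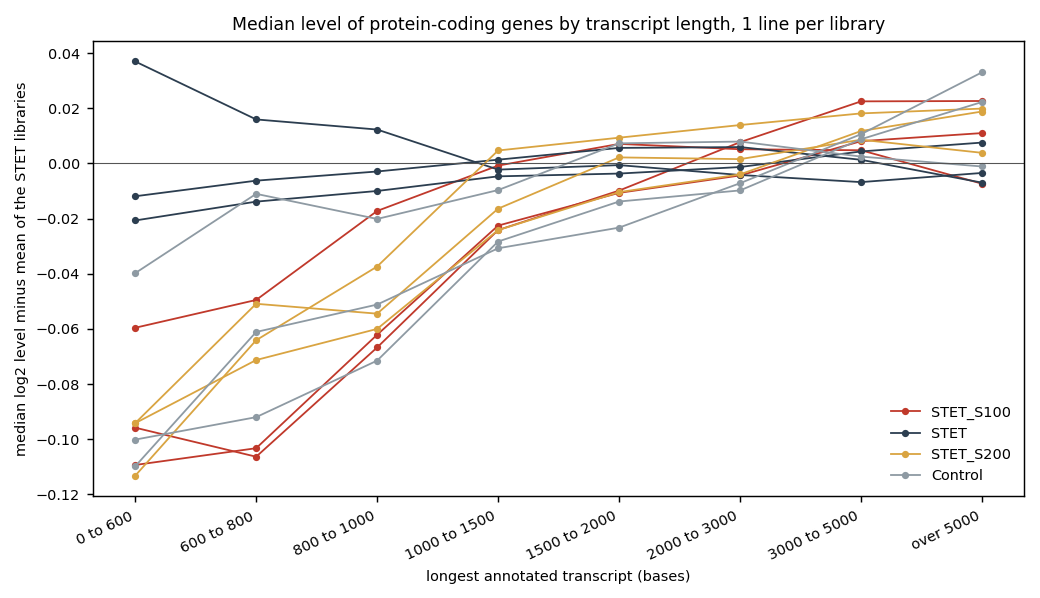
Median log2 level of protein-coding genes in 8 classes of longest annotated transcript (horizontal axis, bases), as the difference from the mean of the STET libraries; each line is 1 library, coloured by group. In the 3 shortest classes every STET_S100 library lies below every STET library, and STET_S200 libraries and most Control libraries lie near the STET_S100 libraries.

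Genes of oxidative phosphorylation, which encode the respiratory chain and ATP synthase in the nucleus, were lower in 58 of 70 cases, with a median log2 fold change of -0.06. The unadjusted p was below 0.05 in 17 (24.3%), all lower, against 1.82% of all genes lower at that level. In 26 the STET_S100 libraries lay wholly below the STET libraries and in 2 wholly above, against 4.87% and 4.73% of all genes. Without STET 2 the 17 became 11. By complex, 28 of 34 genes of complex I (NADH dehydrogenase), 3 of 4 of complex II, 7 of 9 of complex III, 10 of 10 of complex IV (cytochrome c oxidase) and 10 of 13 of ATP synthase were lower.

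Ndufb10, an accessory subunit of complex I, had 81.7, 79.8 and 77.1 CPM in STET_S100 and 90.3, 89.9 and 86.7 CPM in STET (log2 fold change -0.16 ± 0.04, SE). Atp5k, a small subunit of ATP synthase, had 58.0, 54.3 and 51.5 CPM in STET_S100 and 71.1, 71.4 and 63.5 CPM in STET (-0.33 ± 0.08). Neither overlapped between the groups. Cox7c and Cox6c, subunits of cytochrome c oxidase, were lower by 0.16 and 0.15 on the log2 scale, Atp5e of ATP synthase by 0.20 and Ndufb9 of complex I by 0.23. The SE of these 4 lay between 0.04 and 0.07. The median longest transcript of the 70 genes had 1094 bases, and that of the 10 complex IV genes 737 bases. Protein-coding genes at 2 CPM or more had a median of -0.01 between 1000 and 1500 bases. Those of 800 to 1000 bases had -0.05, and those of 600 to 800 bases -0.08. The part of transcript length in the oxidative phosphorylation values was not tested. The 13 messages encoded in the mitochondrial genome were lower in 13 of 13 cases, with a median of -0.11, but 0 of them had an unadjusted p below 0.05 and the groups overlapped in each. Across the proteasome, another large complex expressed in all cells, 20 of 31 genes were lower with a median of -0.005, and 0 had an unadjusted p below 0.05.

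Genes of inflammation were lower as a list. Of 24 cytokines, chemokines and related genes 20 were lower (median log2 fold change -0.22), and 6 had an unadjusted p below 0.05 (25%), all lower, against 1.82% of all genes. In 7 the STET_S100 libraries lay wholly below the STET libraries, against 4.87% of all genes. Cxcl2, a chemokine that attracts neutrophils, had 15.6, 20.5 and 15.5 CPM in STET_S100 and 20.9, 23.9 and 24.8 CPM in STET (-0.43 ± 0.11, SE). Tnf, the cytokine tumour necrosis factor, had 8.21, 10.7 and 10.2 CPM in STET_S100 and 14.3, 12 and 12.8 CPM in STET (-0.43 ± 0.13). Il1a, interleukin 1 alpha, had 41.0, 51.3 and 45.6 CPM in STET_S100 and 62.6, 67.9 and 69.4 CPM in STET (-0.54 ± 0.19). The groups did not overlap in any of these 3 genes.

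The other 3 at that level were lower in the same way. Icam1, an adhesion molecule for leukocytes, overlapped between the groups, with 22, 27.6 and 21.8 CPM in STET_S100 and 26.2, 30.2 and 34.3 CPM in STET (-0.35 ± 0.13, SE). Lcn2, the lipocalin of reactive glia and neutrophils, had 2.63, 1.08 and 1.86 CPM in STET_S100 and 2.78, 4.40 and 4.30 CPM in STET (-1.03 ± 0.42). Nos2, the inducible nitric oxide synthase, stood below 1 CPM throughout. Its level was 0.219, 0.120 and 0.165 CPM in STET_S100 and 0.298, 0.412 and 0.260 CPM in STET. The list leaned on single libraries. Without the libraries that carried Fabp4, which include STET_S100 1 and STET 3, 12 of 24 genes were lower and the median was -0.01. Without STET 2 or without STET 3, the number at an unadjusted p below 0.05 was 3.

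NF-kappa-B is a family of transcription factors that is held in the cytoplasm by inhibitors and, once released, induces many inflammatory genes, among them its own inhibitors. Of 16 genes of the family and its regulators 12 were lower, with a median log2 fold change of -0.04. Without the libraries that carried Fabp4 the median was 0.01, and with 1 library left out it ran from -0.09 to -0.005. An unadjusted p below 0.05 was found in 3 (18.8%), all lower, against 1.82% of all genes. Nfkbia, the inhibitor I-kappa-B-alpha, had 56.1, 69.8 and 63.6 CPM in STET_S100 and 66.6, 81.2 and 83.8 CPM in STET (-0.29 ± 0.10, SE). Tnfaip3, the ubiquitin-editing inhibitor A20, had 36.5, 41.8 and 42.5 CPM in STET_S100 and 44.1, 47.0 and 46.2 CPM in STET (-0.19 ± 0.07). Rel, a subunit of the factor itself, had 16.2, 16.7 and 15.8 CPM in STET_S100 and 16.6, 20.8 and 18.4 CPM in STET (-0.20 ± 0.09). Only Tnfaip3 of these 3 did not overlap between the groups.

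A short form of the letters to which the factor is known to bind was looked for in the promoters. The stretches of Tnfaip3 and Rel are printed because they hold it. The search used GGGNNTTCC and, as its other strand, GGAANNCCC, over 250 bases before to 50 bases after the RefSeq start (GRCm38.p6). Capitals mark the match, with 20 bases on each side.
Tnfaip3 (chr10:19015394-19015442, minus strand, match at -12 to -4 from the start): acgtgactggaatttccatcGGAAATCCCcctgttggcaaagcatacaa
Rel (chr11:23771032-23771080, minus strand, match at -91 to -83): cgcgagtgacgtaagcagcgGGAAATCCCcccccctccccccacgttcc
Of the 12 list genes with an entry, 7 (58.3%) held such letters in that window, and 3 of 15 inflammation genes with an entry (20%) did, against 6.58% of all 27025 genes in the table. Nfkbia, Cxcl2, Tnf, Il1a, Icam1, Lcn2 and Nos2, named above, had no match or no entry. A match is a description of the letters only, and no match says only that this form is not in that window.

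The other comparison that holds the STET_S100 libraries gave these genes on the same side. Between STET_S100 and STET_S200, 16 of 24 inflammation genes were lower in STET_S100, with a median of -0.16 and 5 at an unadjusted p below 0.05, and 12 of 16 NF-kappa-B genes were lower, with a median of -0.07 and 4 at that level, against 5.2% of all genes in that comparison. Il1a stood at 74.3, 72.5 and 55.6 CPM in STET_S200 and Tnfaip3 at 49.8, 53.9 and 44.5 CPM. Both comparisons share the STET_S100 libraries, so they are not independent. In Control, Il1a had 45.5, 76.8 and 59.3 CPM, which overlaps with STET_S100 and with STET. The summed level of the 24 inflammation genes was 490, 608 and 585 CPM in STET_S100 and 553, 645 and 683 CPM in STET. It was 658, 641 and 485 CPM in STET_S200 and 556, 607 and 435 CPM in Control. The sums overlap between all groups, and the lowest library is 1 of Control.

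Microglia, the resident immune cells of the brain, are a main source of these cytokines. Of 18 microglia markers 14 were lower (median log2 fold change -0.09), and 2 (11.1%) had an unadjusted p below 0.05, both lower, against 1.82% of all genes. P2ry12, a purinergic receptor that marks resting microglia, had 8.97, 9.05 and 8.80 CPM in STET_S100 and 10.2, 10.4 and 11.4 CPM in STET (-0.26 ± 0.11, SE). Tyrobp, an adaptor of microglial receptors, had 10.3, 10.1 and 9.86 CPM in STET_S100 and 10.7, 11.6 and 11.7 CPM in STET (-0.16 ± 0.07). P2ry13, a related receptor that is not on the list and was among the 8 lower genes with the smallest p, had 0.857, 0.790 and 0.889 CPM in STET_S100 and 1.91, 1.24 and 1.45 CPM in STET (-0.86 ± 0.21). None of these 3 overlapped between the groups. The summed level of the 18 markers ran from 384 to 439 CPM in STET_S100 and from 404 to 441.1 CPM in STET, and the part of microglial RNA in the cytokine values was not tested.

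**Figure D3:**
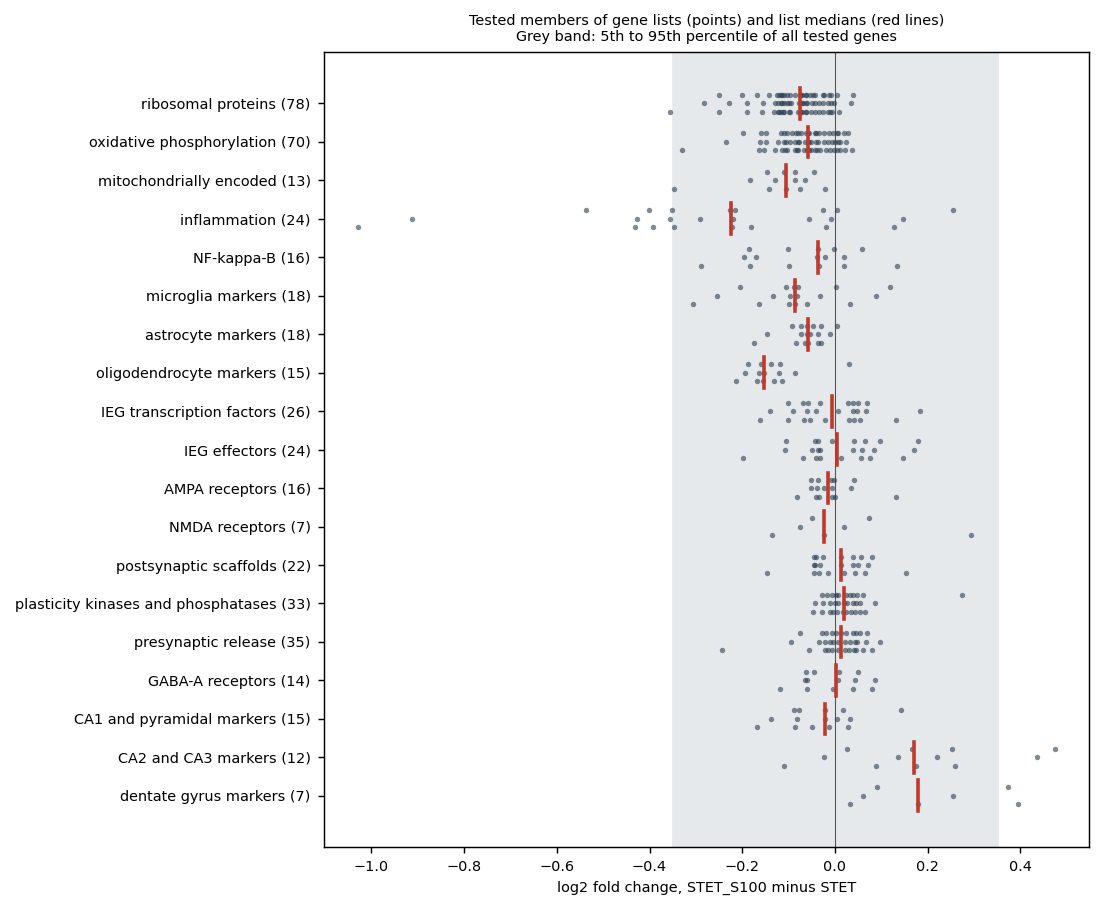
Log2 fold change of STET_S100 minus STET (horizontal axis) for the tested members of 19 gene lists, whose number is given in brackets; red lines mark medians and the grey band spans the 5th to 95th percentile of all 19492 genes. Ribosomal protein genes have a median of -0.08, inflammation genes -0.22, and CA2 and CA3 markers 0.17, and most single members lie within the grey band.

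The genes with the smallest p among those higher in STET_S100 had small differences between tight groups. Neurod2, a transcription factor of excitatory neurons, had 143, 143 and 139 CPM in STET_S100 and 131, 122 and 133 CPM in STET. Its mean was 142 ± 2.14 CPM in STET_S100 and 129 ± 5.87 CPM in STET (SD, n = 3 each). The log2 fold change was 0.14 ± 0.04 (SE; 95% interval 0.06 to 0.22; adjusted p = 1.00 in edgeR's test). STET_S200 libraries stood at 147, 152 and 146 CPM and Control at 127, 126 and 128 CPM. In this gene every library with amygdala stimulation thus lay above every library without it. Of the higher genes named in the next paragraphs, Ahdc1 and Lgr5 showed that order too. Hdac4, Nptx1, Mpp3, Sh3rf3 and Adamts14 did not, and Hdac4 had 84.8, 84.2 and 80.3 CPM in Control. How many of all genes show that order was not counted, and these genes were chosen for their small p.

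Nptx1, the neuronal pentraxin that clusters AMPA receptors at synapses, had 322, 317 and 332 CPM in STET_S100 and 279, 301 and 285 CPM in STET (0.17 ± 0.05, SE). Hdac4, a histone deacetylase that shuttles between nucleus and cytoplasm with activity, had 86.4, 85.0 and 87.8 CPM in STET_S100 and 77.4, 74.7 and 81.0 CPM in STET (0.15 ± 0.04). Mpp3, a scaffold of the membrane-associated guanylate kinase family, had 36.0, 35.0 and 36.0 CPM in STET_S100 and 25.4, 33.7 and 25.6 CPM in STET (0.34 ± 0.10). The groups did not overlap in these 3 genes, but STET 2 came within 2 CPM of STET_S100 in Mpp3. Ahdc1, a DNA-binding protein, was higher by 0.15 ± 0.04 and Sh3rf3, a ubiquitin ligase with SH3 domains, by 0.16 ± 0.05.

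The other 2 of the 8 were expressed at low levels and had larger and less certain folds. Lgr5, a receptor for R-spondins in Wnt signalling, had 2.65, 2.49 and 3.16 CPM in STET_S100 and 1.95, 2.13 and 1.48 CPM in STET (log2 fold change 0.58 ± 0.17, SE). Adamts14, a secreted metalloprotease, had 2.31, 2.20 and 2.00 CPM in STET_S100 and 1.03, 1.72 and 0.716 CPM in STET (0.92 ± 0.27).

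The lower genes chosen for their small p that are not given above were Creb5 and Snhg8. Creb5, a transcription factor related to CREB, had 14.1, 16.3 and 14.6 CPM in STET_S100 and 18.9, 22.8 and 20.3 CPM in STET (log2 fold change -0.46 ± 0.11, SE; 27.5% lower). STET_S200 held it at 16.7, 14.6 and 16.9 CPM and Control at 15.7, 20 and 21.6 CPM. Snhg8, a short noncoding host gene of a small nucleolar RNA, had 14.1, 14.3 and 14.7 CPM in STET_S100 and 17.2, 17.9 and 16.3 CPM in STET (-0.25 ± 0.06). The groups did not overlap in either gene.

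Immediate early genes for transcription factors did not separate the groups. Of 26 genes 13 were higher and 13 lower, with a median log2 fold change of -0.007, 0 at an unadjusted p below 0.05 and 0 without overlap. Their summed level was 2826, 4206 and 3631 CPM in the STET_S100 libraries and 3608, 3695 and 3365 CPM in the STET libraries. STET_S100 thus held both the lowest and the highest of the 6 libraries. Summed levels in Control ran from 2744 to 3114 CPM. Of 24 tested immediate early genes for other proteins 12 were higher, with a median of 0.004. An unadjusted p below 0.05 was found in 1 (4.17%), against 3.16% of all genes. That was Zfp36l2, a protein that promotes the decay of messages, with 28.3, 31.2 and 28.5 CPM in STET_S100 and 26.5, 26.8 and 25 CPM in STET (0.17 ± 0.07, SE).

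Arc, which regulates the removal of AMPA receptors from synapses, had 170, 399 and 241 CPM in STET_S100 and 297, 285 and 191 CPM in STET. The log2 fold change was 0.07 with a 95% interval of -0.68 to 0.81, so neither a 1.5-fold rise nor a 1.5-fold fall lay outside it. Npas4, a transcription factor induced by calcium entry, had 114, 326 and 177 CPM in STET_S100 and 251, 223 and 155 CPM in STET (-0.03; interval -0.93 to 0.86). Fos had 171, 320 and 261 CPM in STET_S100 and 285, 295 and 208 CPM in STET, and Egr1, a zinc finger factor, had 312, 537 and 456 CPM in STET_S100 and 461, 455 and 353 CPM in STET. In all 4 genes STET_S100 1 was the lowest and STET_S100 2 the highest of the 6 libraries. The spread within STET_S100 thus exceeded the difference of the means. For Arc, the mean was 270 ± 117 CPM in STET_S100 and 258 ± 57.9 CPM in STET (SD, n = 3 each).

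**Figure D4:**
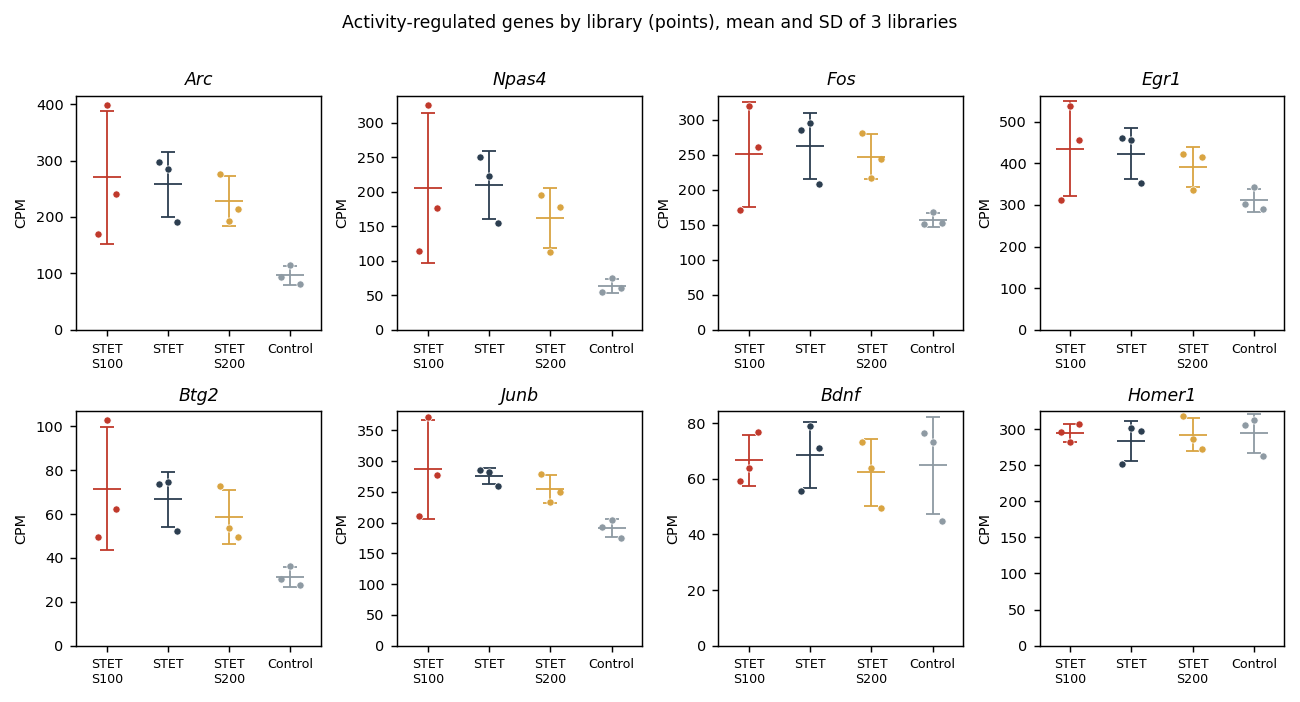
CPM (vertical axes, from 0) of 8 activity-regulated genes in each library of the 4 groups, with the mean and SD of 3 libraries. The STET_S100 libraries overlap the STET libraries in every panel, from 170 to 399 CPM for Arc in STET_S100 against 191 to 297 CPM in STET.

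The other activity-regulated genes chosen whatever their p had intervals that held 0. Junb (log2 fold change 0.05), Jun (0.04), Fosb (-0.04), Egr2 (-0.09), Egr3 (0.07), Egr4 (-0.06), Nr4a1 (0.008), Nr4a2 (0.03) and Nr4a3 (-0.10) encode transcription factors. Dusp1 (-0.05) is a phosphatase of MAP kinases, Btg2 (0.10) an antiproliferative factor, and Gadd45b (-0.11) and Gadd45g (-0.11) are stress proteins linked to DNA demethylation. The others were Bdnf (-0.04), the brain-derived neurotrophic factor, Homer1 (0.06), a postsynaptic scaffold, Nptx2 (0.08), a pentraxin of excitatory synapses, and Inhba (0.18), an activin subunit. The SE of these genes ran from 0.07 for Nr4a2 to 0.41 for Inhba. Klf6, a Krüppel-like factor with the smallest p among the transcription factors, had 88.2, 102 and 115 CPM in STET_S100 and 107, 117 and 118 CPM in STET (-0.16 ± 0.08). Of 28 genes known to respond later to activity 15 were higher, with a median of 0.01. An unadjusted p below 0.05 was found in 2 (7.14%), against 3.16% of all genes. These were Nptx1, given above, and Tac1, the precursor of substance P, with 9.17, 8.40 and 10.4 CPM in STET_S100 and 10.7, 11.2 and 10.2 CPM in STET (-0.20 ± 0.09).

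Lists of receptors and scaffolds of the glutamatergic synapse gave 0 or 1 member each at an unadjusted p below 0.05. In a list of 7 genes 1 member is 14.3%, against 3.16% of all genes. Log2 fold changes of the 16 AMPA receptor subunits and auxiliary proteins ran from -0.08 to 0.13 (median -0.02, median SE 0.05), and 0 had an unadjusted p below 0.05. The interval was wide for Gsg1l, an auxiliary protein, at -0.54 to 0.44. The 7 NMDA receptor subunits ran from -0.14 for Grin3a to 0.29 for Grin3b, a pair of related glycine-binding subunits. Grin3b was expressed at a low level, with 0.857, 0.790 and 0.806 CPM in STET_S100 and 0.556, 0.778 and 0.672 CPM in STET, without overlap but with an interval of -0.22 to 0.81. Grin3a had 104, 103 and 112 CPM in STET_S100 and 124, 101 and 124 CPM in STET and overlapped. Of the 7 metabotropic receptors Grm3, found on astrocytes and presynaptic terminals, was the 1 with an unadjusted p below 0.05. It had 52.8, 51.0 and 54.5 CPM in STET_S100 and 58.8, 58.0 and 61.8 CPM in STET (-0.17 ± 0.07, SE), without overlap. Of the 7 kainate receptors 6 were higher, and Grik4, a subunit of CA3 neurons, had 38.1, 44.5 and 40.5 CPM in STET_S100 and 34.0, 39.4 and 32.2 CPM in STET (0.22 ± 0.08).

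Of 22 postsynaptic scaffold genes 12 were higher, with a median of 0.01 and 0 at an unadjusted p below 0.05, against 3.16% of all genes. Dlg4, which encodes the main scaffold of the postsynaptic density, had 852, 838 and 860 CPM in STET_S100 and 878, 879 and 875 CPM in STET (log2 fold change -0.05 ± 0.04, SE). The groups did not overlap, although the difference was small. Homer3, a scaffold, was higher by 0.15 ± 0.09 and Lrrtm4, a synaptic adhesion protein, lower by 0.15 ± 0.07, both without overlap. Of 33 kinases and phosphatases of plasticity 22 were higher, with a median of 0.02. The 1 with an unadjusted p below 0.05 was Prkca, a protein kinase C, with 207, 190 and 224 CPM in STET_S100 and 156, 204 and 155 CPM in STET (0.27 ± 0.11), which overlapped through STET 2. The 35 presynaptic release genes and the 14 GABA-A receptor subunits had medians of 0.01 and 0.001, with 0 in either list at that level.

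Lists of receptors for neuromodulators and of ion channels gave 0 to 2 members each at an unadjusted p below 0.05, against 3.16% of all genes. Of 12 serotonin receptors 6 were higher and 6 lower, and 2 (16.7%) were at that level. Htr1b, a presynaptic inhibitory receptor, had 7.63, 6.25 and 6.06 CPM in STET_S100 and 8.80, 9.07 and 7.70 CPM in STET (log2 fold change -0.36 ± 0.13, SE), and Htr7, which raises cyclic AMP, had 9.41, 9.50 and 12.1 CPM in STET_S100 and 8.02, 9.34 and 8.09 CPM in STET (0.28 ± 0.14). Of the adrenergic and dopamine receptors 7 of 11 were lower, with 0 at that level, and of the corticosteroid receptors and their targets 10 of 17 were higher, with 0. Kcnip4, which binds A-type potassium channels, had 32.2, 33.0 and 33.1 CPM in STET_S100 and 30.7, 31.0 and 26.7 CPM in STET (0.15 ± 0.06), the 1 of 25 potassium channel genes at that level. Among the 24 calcium and sodium channel genes there were 0.

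Chromatin and stress lists gave 1 member each at an unadjusted p below 0.05, against 3.16% of all genes. Of 11 histone deacetylase genes Hdac4, given above, was the 1 (9.09%) with an unadjusted p below 0.05. Hdac8 had 13.1, 12.2 and 12.2 CPM in STET_S100 and 13.8, 13.9 and 13.9 CPM in STET (log2 fold change -0.15 ± 0.07, SE). Of 18 heat shock and unfolded protein response genes 8 were higher. The 1 at that level (5.56%) was Hspe1, a mitochondrial chaperonin. It had 59.7, 54.6 and 57.3 CPM in STET_S100 and 62.3, 66.2 and 62.3 CPM in STET (-0.15 ± 0.04), without overlap.

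Markers of the cells and fields that the dissection could hold moved with these differences. Of 12 markers of CA2 and CA3, the neighbouring fields, 10 were higher (median log2 fold change 0.17), with 4 at an unadjusted p below 0.05 (33.3%), against 1.34% of all genes higher at that level. These 4 were Nptx1, Grik4, Amigo2 and Bok. The number was 1 without STET 1 or without STET 3, 2 without STET_S100 2 or STET_S100 3, and 1 without the libraries that carried Fabp4. Amigo2, an adhesion protein of CA2 and CA3, had 12.2, 11.2 and 13.9 CPM in STET_S100 and 7.72, 12.2 and 6.96 CPM in STET (0.47 ± 0.20, SE), and Bok, of the BCL2 family, had 15.5, 15.6 and 18.0 CPM in STET_S100 and 11.8, 15.7 and 13.8 CPM in STET (0.25 ± 0.12). The list sums, of which Nptx1 was the largest part, ran from 746 to 766 CPM in STET_S100 and from 662 to 736 CPM in STET and did not overlap. The mean log2 levels of the list, set against the STET mean, did overlap, from 0.08 to 0.23 in STET_S100 and from -0.11 to 0.18 in STET, and 1 of the 12 members was without overlap. All 7 tested markers of the dentate gyrus were higher, with a median of 0.18, a median SE of 0.51 and 0 at an unadjusted p below 0.05. That median was -0.04 without the libraries that carried Fabp4 and 0.001 without STET_S100 1. Of 15 CA1 and pyramidal markers 10 were lower, with a median of -0.02. The part of neighbouring fields in the higher levels of Nptx1 and Grik4 was not tested.

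Markers of oligodendrocytes and astrocytes were mostly lower, and genes of reactive astrocytes were not. Of 15 oligodendrocyte markers 14 were lower, with a median log2 fold change of -0.15. In 8 of them the STET_S100 libraries lay wholly below the STET libraries, against 4.87% of all genes, and 1 (6.67%) had an unadjusted p below 0.05, against 1.82% of all genes lower at that level (0 without STET 2 or without STET_S100 1). That was Gjc3, a connexin of oligodendrocytes, with 36.7, 39.4 and 39.8 CPM in STET_S100 and 41.0, 45.3 and 42.6 CPM in STET (-0.15 ± 0.06, SE). Mal, a myelin protein, had 126, 121 and 124 CPM in STET_S100 and 139, 160 and 131 CPM in STET (-0.21 ± 0.13). The list sums were 3134 to 3218 CPM in STET_S100 and 3327 to 3861 CPM in STET, while STET_S200 ran from 2991 to 4006 CPM and Control from 2940 to 3617 CPM. When STET_S100 and STET were fitted without the other groups, 8 of the 15 markers had an unadjusted p below 0.05. In that fit 808 of all 19492 genes were at that level. Of 16 reactive astrocyte genes 11 were higher, with a median of 0.06 that ran from -0.04 to 0.13 with 1 library left out. The 1 at an unadjusted p below 0.05 (6.25%) was Lcn2, given above, which was lower. Of 18 astrocyte markers 17 were lower, with a median of -0.06, and 1 was without overlap. The mean log2 levels of the 18 markers, set against the STET mean, overlapped, from -0.14 to -0.009 in STET_S100 and from -0.06 to 0.04 in STET. Ntsr2, a neurotensin receptor of astrocytes, had 106, 99.5 and 97.7 CPM in STET_S100 and 109, 111 and 116 CPM in STET (-0.15 ± 0.05). Among 12 markers of the amygdala and its surroundings 6 were higher and 6 lower, and Rspo2, a Wnt agonist, had 28.8, 28.9 and 32.9 CPM in STET_S100 and 38.3, 33.0 and 35.0 CPM in STET (-0.23 ± 0.08).

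**Figure D5:**
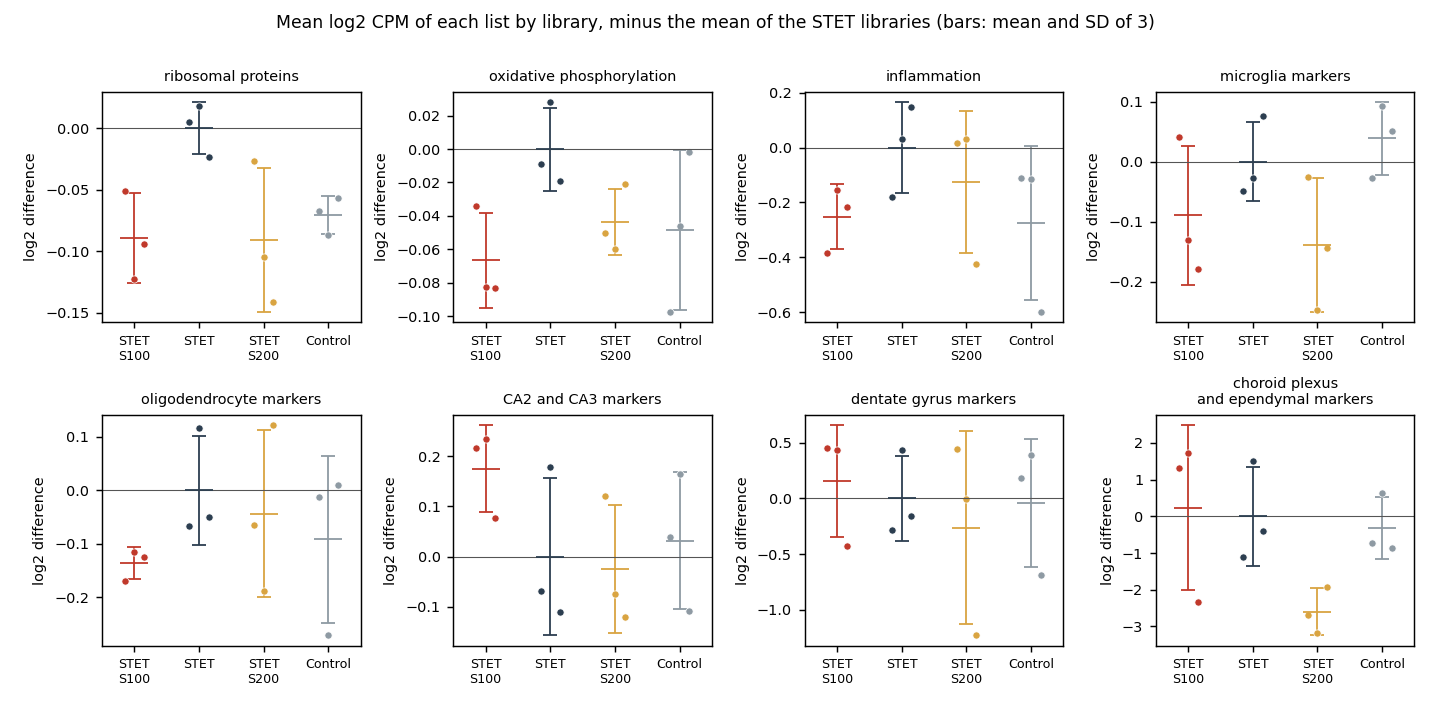
Mean log2 CPM of 8 gene lists in each library (vertical axes, log2 difference from the mean of the STET libraries), by group, with the mean and SD of 3 libraries. For ribosomal proteins and oligodendrocyte markers all STET_S100 libraries lie below all STET libraries, and for choroid plexus markers the STET_S100 libraries span from -2.35 to 1.73.

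STET_S100 was also compared with STET_S200, as the difference between the effects of the 2 groups over the same STET libraries. The labels of STET_S200 give its amygdala rate in 2 ways that conflict, as stated at the start. The comparison is therefore between labelled groups, and an effect of the rate itself was not tested. The same fit called 0 of 19492 genes (0%), with a smallest adjusted p of 0.956, and listed 1014 (5.2%) at an unadjusted p of 0.05. Neurod2 differed by -0.06 ± 0.04 (SE; interval -0.15 to 0.02), Nptx1 by -0.01 ± 0.05 (-0.12 to 0.10), Rps29 by -0.09 ± 0.06 (-0.22 to 0.04) and Creb5 by -0.10 ± 0.11 (-0.34 to 0.14), as log2 values of STET_S100 minus STET_S200. DESeq2 called 5 genes in this comparison and edgeR called 9 without STET_S100 replicate 3, the library with the least choroid plexus RNA of its group. Choroid plexus markers were higher in 15 of 15 cases in STET_S100 than in STET_S200, 12 of them at an unadjusted p below 0.05, and their summed level in STET_S200 ran from 104 to 182 CPM.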

How the data were processed

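RNA of pooled ventral CA1 tissue was sequenced as directional poly(A) libraries with paired reads of 150 bp, per the labels' protocols. The deposited values were whole-number read counts per Ensembl gene, made by the authors without scaling. Trimming (Trimmomatic 0.39), alignment (STAR 2.7.1a) and counting (HTSeq 0.11.2) tools are named in the submitters' processing notes, beside R 4.0.2 and limma. Build, annotation and strand setting were not given in the sources used here. Overlapping and antisense genes are therefore uncertain. Libraries were grouped by their labels. Since each mouse gave 1 slice to every group, the pools of 1 group should hold different mice. The labels do not list the mice of each pool, and p-values measure the spread between these pools.

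Counts were scaled by TMM, kept by filterByExpr (minimum count 10, minimum total 15) and tested with the robust quasi-likelihood F test of edgeR 4.0.16 in R 4.3.3, with all 12 libraries and 1 coefficient per group. P-values were adjusted by Benjamini-Hochberg over 19492 genes, with a threshold of 0.05. Gene symbols were matched for 55144 of 55471 IDs, and transcript lengths are those of the longest GENCODE M21 transcript. The 47 gene lists hold 868 genes, of which 865 were in the table. They were described by counts and medians without a test. The members and lists were chosen with earlier results of these data known. Named genes were the 8 with the smallest p in each direction above a floor of 0 in mean log2 CPM, since fewer than 5 passed, with predicted genes and pseudogenes left out unless among the first 3, 21 activity-regulated genes whatever their p, up to 6 members with the smallest p of each list described, and marker genes. A gene that this rule would name is not reported here. No 2 libraries within STET_S100 or within STET agreed within sampling noise: the chi-square of such a pair was 5.16 to 21.4 times its degrees of freedom. The test was tried on simulated counts. Alternatives used DESeq2 1.42.0, limma-voom (limma 3.58.1), other scalings, filters and sample sets.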

Additional observations from a re-analysis of the deposited data

How the results depend on the processing

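The count of 0 genes between STET_S100 and STET was the same under RLE and upper quartile scaling, limma-voom, a fit without robust estimation, a minimum mean count of 10, a threshold of 0.1, the compared groups alone, the choroid score as covariate, the libraries without Fabp4, and when each library was left out (0 to 0). It was 22 with no filter, where the fit gave Rps29 56844 residual degrees of freedom against 14.97 with the filter, 1 with DESeq2 (Rps29) and 1 with a term for peripheral-tissue RNA (Alb). Same-numbered libraries did not deviate together in all pairs (correlations of deviations -0.29, 0.33 and 0.02). The highest correlation, 0.36, was between STET_S100 3 and STET 1. The labels do not say which libraries share mice, and the main test took no account of shared mice. The replicate block gave 0 genes with all groups and 5 with the compared groups alone (Il1a, Rps29, Atp5k, Creb5 and Bc1, the last named after its value was seen). Between STET_S100 and STET_S200, DESeq2 called 5 genes, and leaving out 1 library gave 0 to 9. The causes of the other shifts were not tested. Counts of genes whose interval lay within 1.5-fold or 2-fold stayed within 1.5 times of those given. Ribosomal protein genes were lower in 69 to 75 cases when a library was left out, 17 to 36 of them at an unadjusted p below 0.05. Of 76 named genes 57 kept their direction in all 19 settings, and of the medians of 47 lists 16 did.

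The other 19 genes, activity-regulated ones near 0, turned direction in 42 values, 30 of them with 1 library left out. Log2 fold changes with 1 library left out ran from -0.33 to 0.31 for Arc, -0.18 to 0.073 for Bdnf, -0.26 to 0.30 for Btg2, -0.20 to 0.067 for Dusp1, -0.14 to 0.23 for Egr1, -0.33 to 0.18 for Egr2, -0.0048 to 0.19 for Egr3, -0.28 to 0.13 for Egr4, -0.29 to 0.14 for Fos and -0.17 to 0.12 for Fosb. They ran from -0.028 to 0.10 for Homer1, -0.031 to 0.35 for Inhba, -0.044 to 0.13 for Jun, -0.18 to 0.23 for Junb, -0.54 to 0.26 for Npas4, -0.0081 to 0.16 for Nptx2, -0.26 to 0.23 for Nr4a1, -0.014 to 0.10 for Nr4a2 and -0.21 to 0.0052 for Nr4a3. Without the libraries that carried Fabp4, Bdnf was at 0.065, Egr2 at 0.14, Egr4 at 0.11, Fosb at 0.11, Npas4 at 0.078 and Nr4a3 at 0.024. By limma-voom Arc was at -0.0061 and Nr4a1 at -0.052. Nr4a1 was also at -0.024 with the replicate block, -0.044 with the block in the compared groups alone, -0.015 with the peripheral-tissue term and -0.0044 with the choroid score. With 3 pooled libraries a group, the intervals of Arc, Npas4 and Inhba held a 1.5-fold change in both directions, so changes of that size could not be shown in them.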
